A study of Rattus norvegicus with 9 samples.

Results

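The genes described here are 34 microglial and inflammatory cytokine genes, 15 of them genes that microglia express and 19 of them inflammatory receptors, cytokines, chemokines and their target genes. They were chosen by gene symbol from the 32623 genes of the deposited expression table, each symbol matched exactly 1 entry, and all 34 passed the filter on low counts that left 16284 genes for testing. RNA was sequenced from primary cortical neurons of Wistar rat embryos taken at embryonic day 16 to 18 and grown in serum-free neuronal medium on glass coated with conductive indium tin oxide. There were 3 libraries of neurons under alternating current stimulation (ACS), 3 under direct current stimulation (DCS, written DES in the labels) and 3 without current (control). All 9 came from wild-type animals and were labelled day 7 in vitro, although the growth protocol in the labels runs to a later day, so the age of the cultures is not certain. The labels give 3 µA for 20 min over 7 days in the stimulated groups and a frequency of 20 Hz for both, a frequency that the study's text gives for ACS.

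Microglia are the resident macrophages of the brain and are not neurons. They come from the yolk sac, enter the embryonic cortex early and are carried into cortical cultures as a minor population, where receptors for bacterial products such as Tlr2 and Cd14 switch on NF-κB, which transcribes Il1b, Tnf, Il6 and many chemokines. Astrocytes and neurons make some of the same products, so a signal of Ccl2, Lcn2 or C3 in a mixed culture does not name its cell of origin.

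Markers of microglia were present in every library. The 11 members that serve as microglial markers (Tmem119, Aif1, C1qa, C1qb, C1qc, Trem2, P2ry12, Csf1r, Cx3cr1, Itgam and Tyrobp) summed to 79.97 to 83.19 FPKM (fragments per kilobase of exon, scaled to the fragments of the library) in ACS libraries, 86.43 to 90.22 in DCS libraries and 78.9 to 80.65 in control libraries. Neuronal markers summed to 2185 to 2297 FPKM in ACS, 2083 to 2264 in DCS and 2050 to 2156 in control libraries. Tubb3 and Stmn2, at means over all libraries of 1123 and 702 FPKM, made up most of this sum. The lists hold different genes, so their sums do not measure shares of cells. Astrocyte markers summed to 212.4 to 292.4 FPKM in ACS, 257 to 263.8 in DCS and 261.9 to 270.7 in control libraries. Oligodendrocyte-lineage markers summed to 181.6 to 198.5 FPKM in ACS, 184.5 to 211.7 in DCS and 181.4 to 210.5 in control libraries, and endothelial markers to at most 0.5804 FPKM in ACS, 0.5984 in DCS and 0.6282 in control libraries. Of the markers of macrophages of the brain's borders, Pf4 and Mrc1 had means over all libraries of 10.7 and 5.01 FPKM. The others were near 0, with Lyve1 at 0.136, Ms4a7 at 0.0922, Cd163 at 0.0221 and F13a1 at 0.00529 FPKM. Of 6 neutrophil and lymphocyte markers, 5 were listed at 0 in all 9 libraries. In RNA from mixed cells, fewer cells of a type and less RNA per cell cannot be told apart.

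The total estimated count was 49039412 to 52938628 in ACS libraries, 52370330 to 68133858 in DCS libraries and 53910745 to 68690760 in control libraries, so all 3 ACS totals lay below all 3 control totals. The part of this difference in depth in the results was not tested, but counts were scaled to library size. Among low counts, 34.1% of the values from 1 to 15 were 4, 8 or 12, where 20% would be if all values were equally frequent, so that 1 sequenced fragment may add about 4 to an estimated count. Whether this is so was not settled, and if it is, low counts hold less evidence than their size shows. Separate cultures are named as the source of the libraries neither in the labels nor in the study's text. The p-values therefore cover the spread among the 9 libraries, which may be technical.

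The levels of the members spanned a wide range. Lcn2, a secreted iron-siderophore carrier induced in inflammation, was the highest, with a mean over all 9 libraries of 107 FPKM, above 96.2% of tested genes. Ccl3, a chemokine, followed at 59.9 FPKM and Il1b, the cytokine interleukin-1β, at 57.0 FPKM. Ccr1, a receptor for chemokines of the Ccl3 kind, was the lowest at 0.0816 FPKM, above only 2.41% of tested genes. A mean of at least 1 FPKM was found for 29 members and of at least 10 FPKM for 17, while P2ry12, Tmem119, Il6, Ptgs2 and Ccr1 were under 1 FPKM. Within the control group the median coefficient of variation was 10.5%. It was above 40% for 7 members, namely Tnf, P2ry12, Cxcl10, Ccr1, Il6, Ptgs2 and Cx3cr1, and differences in these had wide standard errors.

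**Figure D1:**
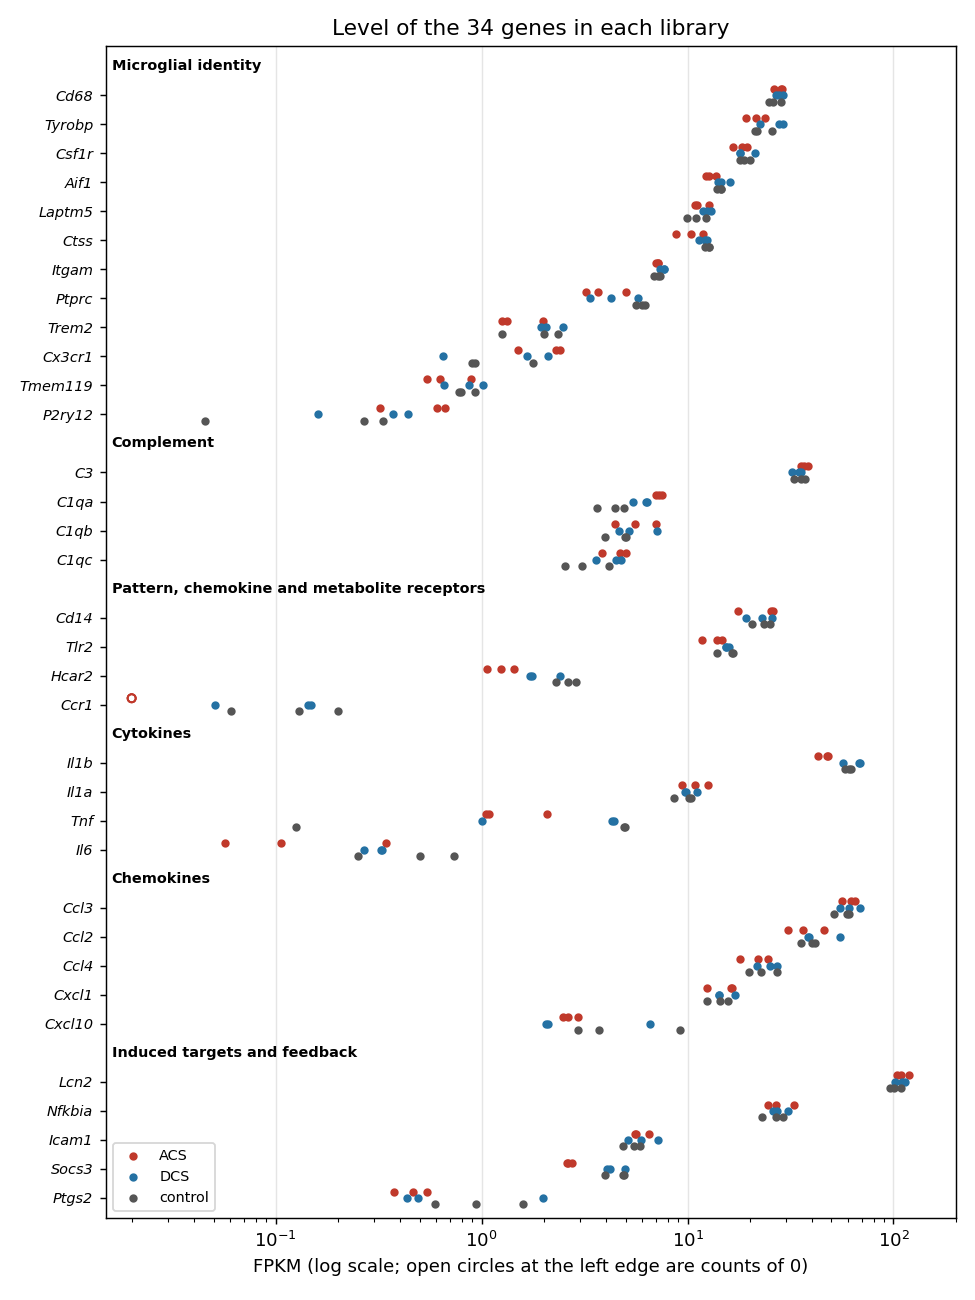
FPKM on a log axis for all 34 members in each of the 3 ACS, 3 DCS and 3 control libraries, with 1 point per library and the members grouped by role. Lcn2 stood highest at a mean of 107 FPKM, and the 3 ACS libraries of Ccr1, with counts of 0, are open circles at the left edge.

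Between ACS and control cultures, 5 of the 34 members passed the test, an adjusted p under 0.05 in edgeR's quasi-likelihood test. C1qa rose under ACS, and Hcar2, Socs3, Il1b and Ccr1 fell. Ccr1 had estimated counts of 0 in all 3 ACS libraries. It passed the filter on low counts only through the DCS and control libraries, where it was higher. Over all tested genes 4.16% passed, 2.83% being higher and 1.33% lower. Members were chosen with earlier results of these data known. Here and below, counts of members beside shares of all genes therefore describe the list and do not test it. The 15 microglial genes held the 1 member that rose and none that fell, and their log2 fold changes had a median of 0.0077, whereas the 19 inflammatory genes held the 4 that fell and had a median of -0.0967. The median over all tested genes was -0.00287. On counts scaled to library size (CPM), the groups did not overlap for 8 members, against 27.1% of all tested genes. Of these 8, 1 was higher under ACS, against 14% of tested genes, and 7 were lower, against 13%.

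Among the genes of complement, C1qa rose. It encodes the A chain of C1q, which microglia make in the brain and which tags synapses and debris for removal. C1qa (chromosome 5, 155261250 to 155264143, minus strand, in the table's coordinates, whose build is not named) had 7.54, 7.02 and 7.27 FPKM in ACS libraries, 6.32, 6.38 and 5.44 FPKM in DCS libraries and 4.92, 4.45 and 3.64 FPKM in control libraries. Every ACS library exceeded every DCS library, and every DCS library exceeded every control library. The means were 7.28 ± 0.257 FPKM in ACS, 6.04 ± 0.527 in DCS and 4.34 ± 0.646 in control (SD, n = 3 each), and the log2 fold change of ACS over control was 0.76 (SE 0.15, adjusted p = 0.0253 in edgeR's quasi-likelihood test). The DCS mean lay between the others but did not pass, at 0.47 over control (adjusted p = 0.692), and neither did ACS over DCS, at 0.29 (adjusted p = 0.429). The call against control was lost without ACS 1 (adjusted p = 0.0907), ACS 2 (0.0763), ACS 3 (0.0597) or control 2 (0.0916), while the fold change stayed positive.

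The genes for the other C1q chains lie beside C1qa on the same strand, 2.9 kb away for C1qc and a further 3.0 kb for C1qb, with 0 listed genes between them. C1qb had 7.02, 5.53 and 4.45 FPKM in ACS libraries, 7.15, 5.18 and 4.63 FPKM in DCS libraries and 4.99, 5.03 and 3.97 FPKM in control libraries. C1qc had 5.03, 4.70 and 3.83 FPKM under ACS, 4.78, 4.50 and 3.58 under DCS and 4.18, 3.07 and 2.55 in control cultures. Both overlapped between all 3 groups, and C1qc did not pass for ACS against control (log2 fold change 0.48, adjusted p = 0.243). C3, the central complement protein, had 35.7, 36.6 and 38.3 FPKM in ACS, 35.5, 34.7 and 32.1 in DCS and 37.1, 32.8 and 35.5 in control libraries. Its ACS libraries lay above all DCS libraries by a small margin, with a log2 fold change of 0.14 that did not pass (adjusted p = 0.348).

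Among the receptors, Hcar2 and Ccr1 fell under ACS. Hcar2 encodes the receptor for niacin and β-hydroxybutyrate, carried by microglia and macrophages, where its activation dampens inflammatory responses. Hcar2 (chromosome 12, 38160464 to 38161546, plus strand) had 1.44, 1.06 and 1.24 FPKM in ACS libraries, 1.76, 1.73 and 2.41 FPKM in DCS libraries and 2.29, 2.61 and 2.89 FPKM in control libraries. The ACS libraries lay below all others, and DCS and control overlapped. The means were 1.25 ± 0.187 FPKM in ACS, 1.97 ± 0.386 in DCS and 2.60 ± 0.297 in control (SD, n = 3 each). The log2 fold change of ACS over control was -1.04 (SE 0.21, adjusted p = 0.028 in edgeR's quasi-likelihood test), that of ACS over DCS was -0.63 (adjusted p = 0.216) and that of DCS over control was -0.41 (adjusted p = 0.696). The call was lost without any 1 of the 3 ACS libraries, control 1 or control 2, at adjusted p of 0.0622 to 0.107.

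Ccr1 (chromosome 8, 132996649 to 133002201, minus strand) was at the edge of detection. Its estimated counts were 0 in all 3 ACS libraries, 15, 6 and 19 in DCS libraries and 21, 17 and 8 in control libraries. No ACS library held an estimated count above 0, but if a fragment adds about 4 counts the others held only a few fragments each. A floor of 3 fragments, 12 counts per library if a fragment adds about 4, was set for the ACS libraries. The mean CPM of Ccr1 was 1.08 times this floor in control libraries and below it in DCS libraries. Error in the control mean was not allowed for, and control 3, at 8 counts, lay below the floor. No lower bound on the fold was therefore given against either group. The adjusted p was 0.0427 for ACS against control and 0.0935 for ACS against DCS in edgeR's quasi-likelihood test, and the log2 fold change of DCS over control was -0.20 (SE 0.78, adjusted p = 0.967). With every library kept, the call against control was lost in limma on log2(FPKM + 0.1) (adjusted p = 0.0842), in limma on log2(FPKM + 1) (0.157) and with a replicate block (0.0879). It was kept when control 3 was left out (0.0305) and lost when any other of the 9 libraries was (0.0582 to 0.131), and the fitted fold change of a gene at 0 is no measure of its size.

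The remaining receptors sense bacterial products. Tlr2, the receptor for bacterial lipoproteins, had 11.8, 13.9 and 14.6 FPKM under ACS, 15.3, 15.3 and 15.8 under DCS and 16.4, 16.6 and 14.0 in control cultures. Its ACS libraries all lay below the DCS libraries and overlapped with control, where the log2 fold change of -0.21 did not pass (adjusted p = 0.233). Cd14, the co-receptor for lipopolysaccharide, had 26.0, 25.5 and 17.6 FPKM in ACS, 23.0, 25.7 and 19.3 in DCS and 23.5, 25.1 and 20.5 in control libraries, with full overlap.

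Among the cytokines, Il1b fell under ACS against both other groups. Il1b encodes interleukin-1β, which is made as a precursor and released after cleavage by caspase-1. Il1b (chromosome 3, 121876263 to 121882726, minus strand) had 47.5, 48.1 and 43.2 FPKM in ACS libraries, 67.9, 68.6 and 56.6 FPKM in DCS libraries and 58.3, 61.9 and 60.8 FPKM in control libraries. All ACS libraries lay below all others, and control lay within the range of DCS. The means were 46.3 ± 2.68 FPKM in ACS, 64.3 ± 6.74 in DCS and 60.3 ± 1.87 in control (SD, n = 3 each). Il1b was measured from 3313 to 6129 estimated counts per library. The log2 fold change of ACS over control was -0.37 (SE 0.08, adjusted p = 0.0367 in edgeR's quasi-likelihood test) and that of ACS over DCS was -0.45 (SE 0.08, adjusted p = 0.0449). That of DCS over control was 0.08 (adjusted p = 0.816). The call against control was lost without any 1 ACS library, control 1 or control 2 (adjusted p 0.0941 to 0.132), and that against DCS without these 5 libraries, DCS 1 or DCS 2 (adjusted p 0.0729 to 0.169).

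The neighbouring gene Il1a, 40.2 kb away with 0 listed genes between, encodes interleukin-1α, which acts on the same receptor. It had 12.5, 10.9 and 9.36 FPKM in ACS libraries, 9.80, 11.1 and 9.72 in DCS libraries and 10.2, 10.4 and 8.63 in control libraries. Il1a thus overlapped in all 3 groups and passed in no comparison.

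Il6, the cytokine that signals through gp130 and STAT3, had 0.0567, 0.106 and 0.344 FPKM in ACS libraries, 0.329, 0.325 and 0.269 FPKM in DCS libraries and 0.501, 0.739 and 0.251 FPKM in control libraries. These were 4, 6 and 20 estimated counts under ACS, 19, 21 and 20 under DCS and 30, 55 and 18 in control cultures, so ACS 3 lay above control 3. The log2 fold change of Il6 was -1.48 for ACS over control (SE 0.66, adjusted p = 0.239), -0.79 for ACS over DCS (adjusted p = 0.662) and -0.70 for DCS over control (adjusted p = 0.811). Tnf, tumour necrosis factor, had 1.09, 2.07 and 1.06 FPKM under ACS, 1.00, 4.31 and 4.38 under DCS and 0.125, 4.95 and 4.94 in control cultures. DCS 1 and control 1 were far below the other libraries of their groups, and the log2 fold change of ACS over control was -1.23 with an SE of 0.94 (adjusted p = 0.498). Tnf overlaps other listed genes in the table, and use of strand in counting is not stated.

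**Figure D2:**
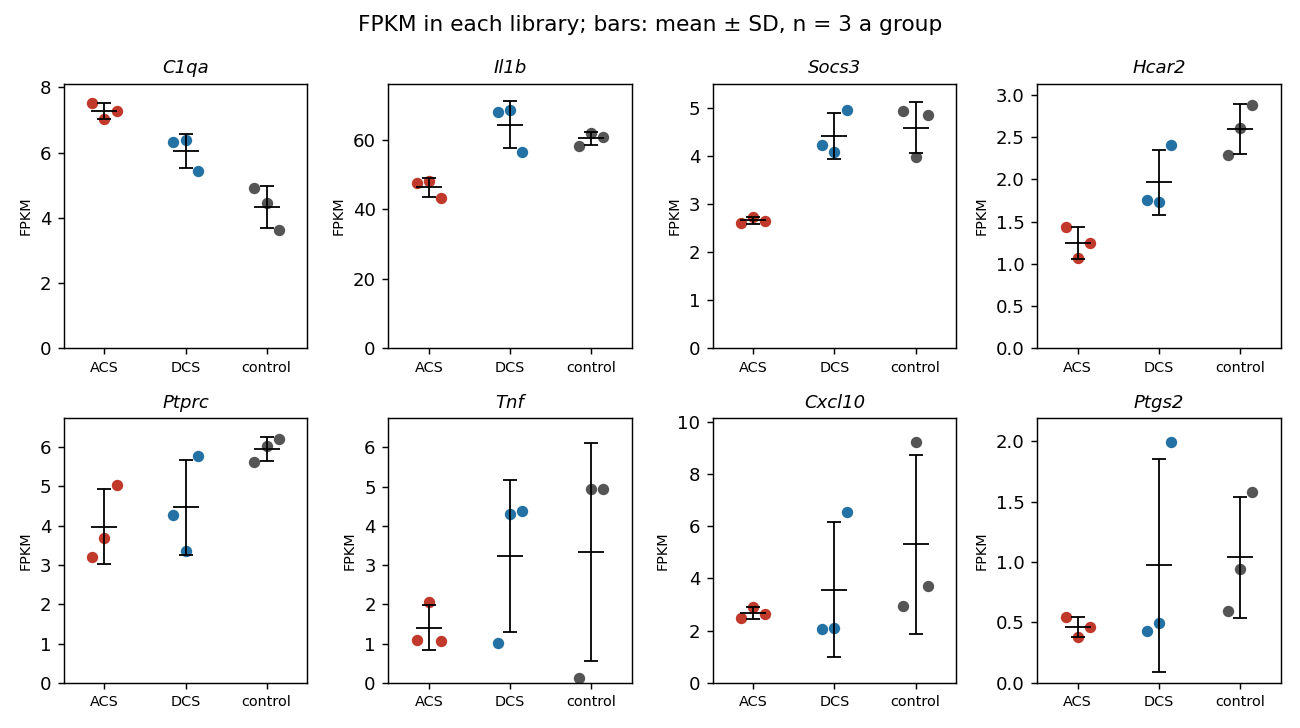
FPKM per library, on axes that start at 0, for C1qa, Il1b, Socs3, Hcar2, Ptprc, Tnf, Cxcl10 and Ptgs2 in ACS, DCS and control groups, with 1 point per library, the group mean as a line and the SD as a bar. The 3 ACS points of C1qa lay above all others at 7.02 to 7.54 FPKM, and those of Hcar2, Il1b and Socs3 lay below all others.

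None of the 5 chemokines passed in any of the 3 comparisons. Chemokines draw leukocytes along a gradient. Ccl2, which attracts monocytes, had 36.3, 30.6 and 46.1 FPKM in ACS, 39.0, 38.3 and 55.1 in DCS and 35.6, 40.1 and 41.5 in control libraries. Ccl3 had 64.7, 62.3 and 56.3 FPKM in ACS, 60.7, 68.7 and 54.7 in DCS and 59.2, 61.0 and 51.2 in control libraries. The ranges of both overlapped between all groups, and so did those of Ccl4, a close relative of Ccl3 that lies 13.5 kb from it (18.0 to 27.2 FPKM over all libraries), and of the neutrophil attractant Cxcl1 (12.4 to 17.0 FPKM). The interferon-induced Cxcl10 had 2.47, 2.92 and 2.63 FPKM under ACS, 2.06, 2.11 and 6.54 under DCS and 2.95, 9.24 and 3.72 in control cultures. All 3 ACS values lay below all 3 control values, but control 2 and DCS 3 were far above the rest, and the log2 fold change of ACS over control was -0.97 with an SE of 0.51 (adjusted p = 0.313).

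Among the genes that these signals induce, Socs3 fell. It encodes a suppressor of cytokine signalling, transcribed by STAT3, that binds gp130 and the Janus kinases and ends the response to cytokines of the interleukin-6 family. Socs3 (chromosome 10, 106975178 to 106976040, minus strand) had 2.60, 2.73 and 2.64 FPKM in ACS libraries, 4.22, 4.07 and 4.95 FPKM in DCS libraries and 4.94, 3.98 and 4.84 FPKM in control libraries. The ACS values lay close together and below all others, and DCS and control overlapped. The means were 2.66 ± 0.07 FPKM in ACS, 4.42 ± 0.472 in DCS and 4.59 ± 0.527 in control (SD, n = 3 each). The log2 fold change of ACS over control was -0.77 (SE 0.16, adjusted p = 0.0293 in edgeR's quasi-likelihood test), that of ACS over DCS was -0.70 (adjusted p = 0.0816) and that of DCS over control was -0.06 (adjusted p = 0.936). The call was lost without ACS 1 (adjusted p = 0.101), ACS 2 (0.0963), ACS 3 (0.0772), control 1 (0.117) or control 2 (0.0648).

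The other induced genes did not pass. Nfkbia, the inhibitor that NF-κB induces against itself, had 26.9, 24.7 and 32.9 FPKM under ACS, 26.1, 27.2 and 30.9 under DCS and 23.1, 26.9 and 29.0 in control cultures. Ptgs2, the inducible cyclooxygenase, had 0.545, 0.377 and 0.464 FPKM in ACS, 0.433, 0.494 and 1.99 in DCS and 0.592, 0.941 and 1.58 in control libraries. All ACS values of Ptgs2 lay below all control values, with a log2 fold change of -1.15 and an SE of 0.56 (adjusted p = 0.277). Lcn2 had 109, 105 and 119 FPKM in ACS, 102, 109 and 114 in DCS and 101, 95.8 and 108 in control libraries, a log2 fold change of ACS over control of 0.14 (adjusted p = 0.241). Icam1, an adhesion molecule for leukocytes, ranged between 4.84 and 7.18 FPKM over all 9 libraries.

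The 12 genes of microglial identity and lysosome function outside complement passed in no comparison. Ptprc, the pan-leukocyte phosphatase CD45, had 3.20, 3.68 and 5.03 FPKM in ACS libraries, 4.27, 3.35 and 5.76 FPKM in DCS libraries and 5.61, 6.02 and 6.20 FPKM in control libraries. All ACS libraries lay below all control libraries, and the log2 fold change of -0.57 did not pass (SE 0.20, adjusted p = 0.135), whereas DESeq2 gave an adjusted p of 0.0159. Its log2 fold changes were -0.14 for ACS over DCS (adjusted p = 0.807) and -0.42 for DCS over control (adjusted p = 0.695). Homeostatic markers were low and variable. P2ry12, the ADP receptor of resting microglia, had 0.662, 0.606 and 0.322 FPKM under ACS, 0.439, 0.370 and 0.161 under DCS and 0.269, 0.332 and 0.0453 in control cultures. Cx3cr1, the receptor for the neuronal chemokine fractalkine, had 2.40, 2.30 and 1.51 FPKM under ACS, 2.10, 1.66 and 0.651 under DCS and 0.894, 1.77 and 0.929 in control cultures. Both overlapped between ACS and control, with log2 fold changes of 1.31 (adjusted p = 0.311) and 0.79 (adjusted p = 0.326). P2ry12 lies within Med12l on the opposite strand, and their reads cannot be told apart where counting does not use strand. Cxcl10 and Ccl3 also overlap listed genes on the opposite strand. Itgam overlaps Itgax by 21211 bases on the same strand, where use of strand would not separate them.

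Genes with steadier values differed little. Csf1r, the receptor on which microglial survival depends, had 16.7, 18.3 and 19.5 FPKM in ACS, 17.9, 17.9 and 21.2 in DCS and 17.9, 18.8 and 20.0 in control libraries. Aif1, which encodes the microglial protein Iba1, had 12.3, 13.8 and 12.7 FPKM in ACS, 14.6, 16.0 and 14.0 in DCS and 14.5, 14.5 and 13.9 in control libraries. The ACS values of Aif1 lay below those of both other groups in FPKM, but in CPM they overlapped with both. The log2 fold change of Aif1 under ACS was -0.13 over control (adjusted p = 0.348). It was -0.18 over DCS (adjusted p = 0.321), and neither passed in edgeR's quasi-likelihood test. Laptm5, a lysosomal membrane protein of blood cells, had 10.9, 12.7 and 11.2 FPKM in ACS, 12.5, 11.9 and 12.9 in DCS and 11.0, 9.96 and 12.2 in control libraries. Its log2 fold changes were 0.08 for ACS over control (adjusted p = 0.644), -0.08 for ACS over DCS (adjusted p = 0.748) and 0.16 for DCS over control (adjusted p = 0.705).

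The other 6 microglial genes are given by their range over all 9 libraries. The integrin Itgam, a subunit of complement receptor 3, lay between 6.88 and 7.72 FPKM. Trem2, a lipid-sensing receptor, lay between 1.26 and 2.49 FPKM, and Tyrobp, the adaptor through which it signals, between 19.2 and 29.0 FPKM. The lysosomal protein Cd68 lay between 25.0 and 29.0 FPKM and the lysosomal protease Ctss between 8.81 and 12.8 FPKM. In FPKM all ACS values of Ctss lay below all control values, whereas in CPM these groups overlapped. Its log2 fold change of ACS over control, -0.26, did not pass (adjusted p = 0.248 in edgeR's quasi-likelihood test). Tmem119, a membrane protein of resident microglia, lay between 0.543 and 1.02 FPKM.

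The 15 microglial members together summed to 135.7 ± 2.25 FPKM in ACS, 145.5 ± 1.65 FPKM in DCS and 135.6 ± 3.6 FPKM in control libraries (SD, n = 3 each). The ratio of the sums was 1.001 for ACS over control, 1.073 for DCS over control and 0.9327 for ACS over DCS. On the CPM scale, which does not divide by gene length, these ratios were 0.9774, 1.023 and 0.9557. The fall of Il1b, Hcar2 and Socs3 under ACS stood beside a summed microglial level of 134.4 to 138.32 FPKM, within the 133.11 to 139.77 FPKM of control libraries. In CPM the sum was 284.4, 290.66 and 299.91 in ACS libraries, against 293.94, 298.26 and 303.01 in control libraries, so ACS 1 and ACS 2 lay below all control libraries on that scale. The sum holds C1qa, C1qb and C1qc, whose means were higher under ACS than in control libraries. The other 12 genes summed to 114.9, 117.2 and 122.8 FPKM in ACS libraries. In control libraries they summed to 119, 121.5 and 129.6 FPKM, so the groups overlapped with lower values under ACS. The part of these sums in the falls was not tested. The marker list of border macrophages and monocytes summed to 13.55 to 15.59 FPKM in ACS, 13.8 to 18.59 in DCS and 16.81 to 18.31 in control libraries, so that ACS lay below control there too. Pf4 and Mrc1 made up almost all of this sum, and the part of this difference in the results was not tested. Of 8 neuronal markers, 1 rose under ACS against control, Rbfox3 (NeuN) by 0.43 on the log2 scale (adjusted p = 0.0081), 0 fell, and the median of the list was 0.0509. Of 7 astrocyte markers, 1 rose, the filament protein Gfap by 0.25 (adjusted p = 0.0281), 0 fell, and the median was 0.218. Map2 among the neuronal markers and Slc1a3 and Gja1 among the astrocyte markers had values below 0 that did not pass, at -0.34, -0.30 and -0.06.

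**Figure D3:**
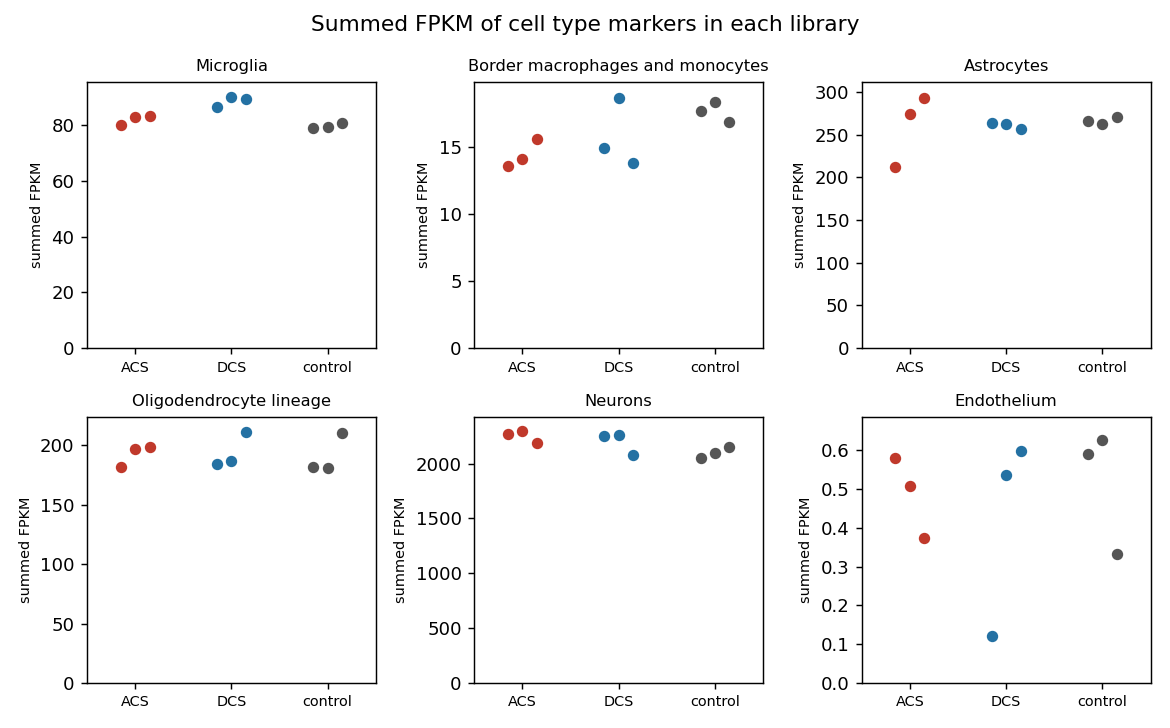
Summed FPKM of cell type marker lists in each of the 3 ACS, 3 DCS and 3 control libraries, with 1 point per library. The microglial list lay at 79.97 to 83.19 FPKM in ACS libraries, against 78.9 to 80.65 FPKM in control libraries.

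No member passed the test under direct current. Of the 34, 0 passed for DCS against control in edgeR, 0 in DESeq2 and 0 in limma, where 0.0123% of all tested genes passed in edgeR. At an unadjusted p under 0.05 in edgeR's quasi-likelihood test, 1 member was past the threshold, against 7.09% of all tested genes, and it was C1qa, which was higher under DCS. The median log2 fold change of the members was 0.0676, with 21 above 0, against a median of 0.00275 over all tested genes. The summed FPKM of the 15 microglial members did not overlap, at 144.38 to 147.41 in DCS against 133.11 to 139.77 in control libraries. In CPM the groups overlapped, at 305.31, 297.29 and 312.94 in DCS against 293.94, 298.26 and 303.01 in control libraries. Il1b, Socs3 and Laptm5 had DCS over control values of 0.08, -0.06 and 0.16 on the log2 scale.

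Between ACS and DCS, Il1b was the only member that passed, against 0.633% of all tested genes, and it was lower under ACS, as were 0.123% of tested genes. In CPM the groups did not overlap for 7 members, against 21.4% of all tested genes. Of these 7, 2 were higher under ACS, against 11.2% of tested genes, and 5 were lower, against 10.2%. The median log2 fold change of the members was -0.111, with 13 above and 21 below 0, against a median of -0.00209 over all tested genes. The summed FPKM of the 15 microglial members also differed here without overlap, at 134.4 to 138.32 FPKM in ACS against 144.38 to 147.41 FPKM in DCS libraries, whereas in CPM the groups overlapped, at 284.4, 290.66 and 299.91 CPM in ACS against 305.31, 297.29 and 312.94 CPM in DCS libraries. The part of this sum in the lower Il1b was not tested. The comparisons with DCS and with control share the 3 ACS libraries. Socs3 passed in DESeq2 (adjusted p = 0.0172) and not in edgeR.

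By the thresholds the study used, an unadjusted p under 0.05 with more than a 2-fold difference, 3 members were lower and 0 higher for ACS against control (Hcar2, Ccr1 and Il6), against 1.47% of all tested genes in either direction and 0.473% that were lower. For ACS against DCS 1 member, Ccr1, was lower, against 1.03% in either direction and 0.473% lower. For DCS against control 0 members were past them, against 0.571%. Only Hcar2 of these 3 had a mean of at least 1 FPKM. Ccr1 passed the filter on low counts only through the groups where it was higher than in ACS libraries.

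**Figure D4:**
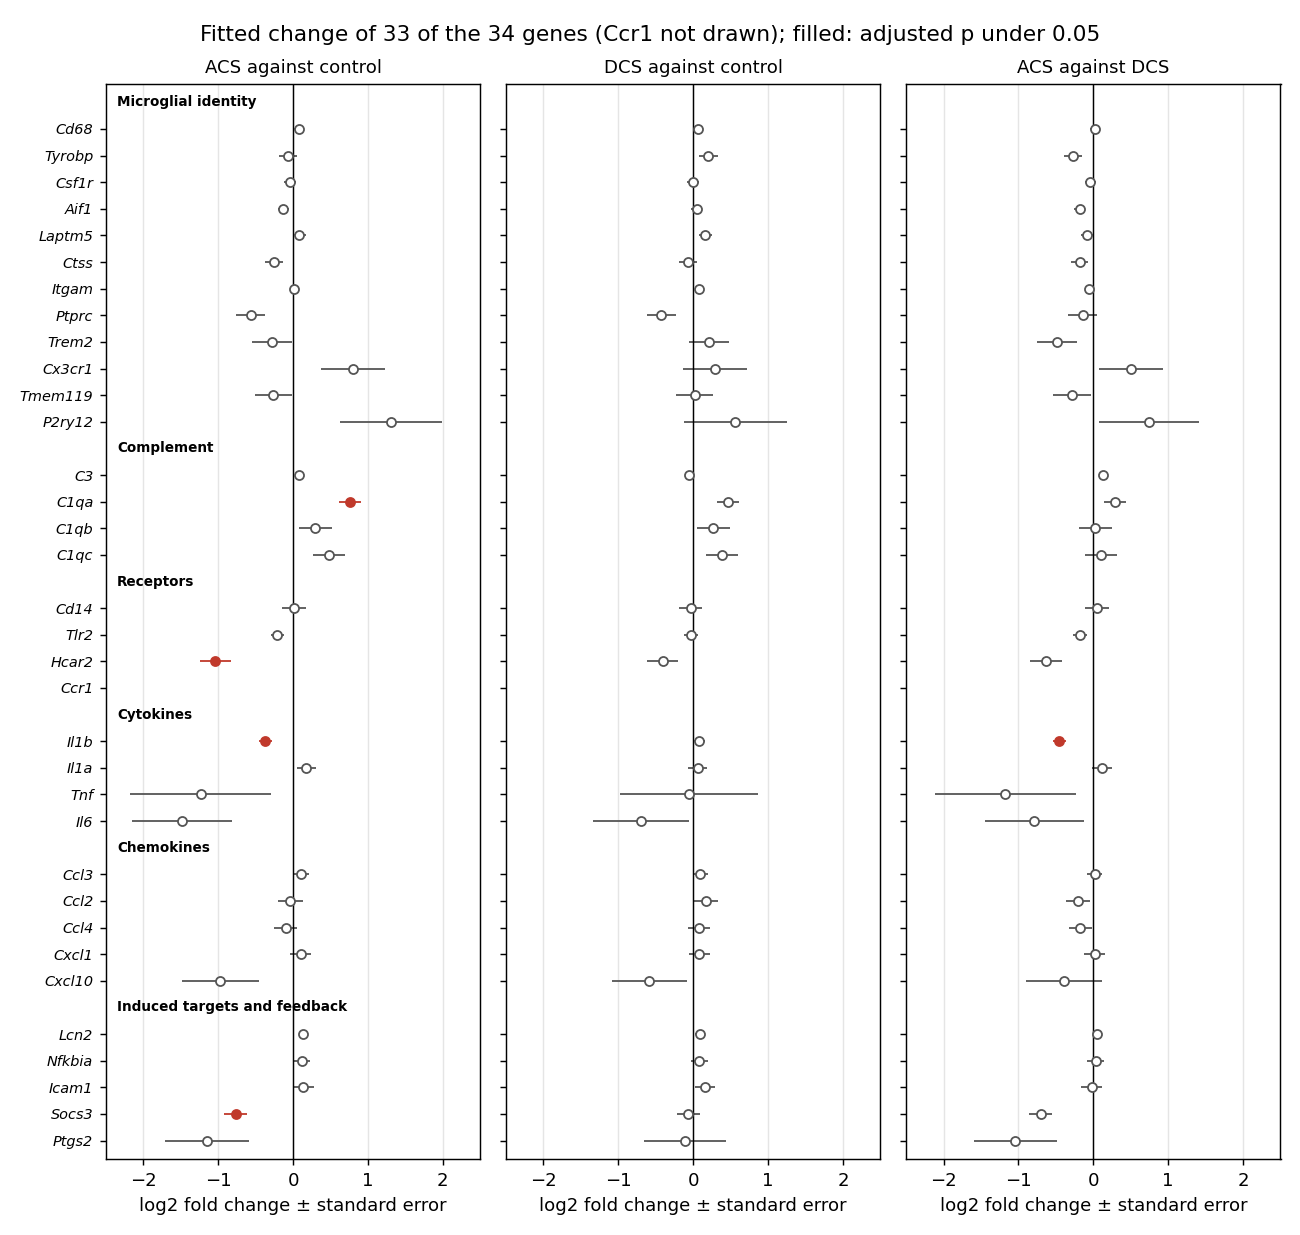
Log2 fold change with its standard error for 33 of the 34 members in the comparisons of ACS with control, DCS with control and ACS with DCS, grouped by role, with filled symbols where the adjusted p of edgeR's quasi-likelihood test was under 0.05 and Ccr1, at 0 under ACS, not drawn. C1qa at 0.76 and Hcar2 at -1.04 stood on opposite sides of 0 for ACS against control.

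The wider pathways held no gene past the test. For ACS against control, 20.8% of all tested genes had an unadjusted p under 0.05. Of 36 tested genes on a list of other microglial and myeloid genes, 0 passed in edgeR, DESeq2 or limma in any comparison, and 1 had an unadjusted p under 0.05 for ACS against control. Its most abundant gene was Lyz2, lysozyme, at a mean of 397 FPKM, followed by the Fc receptor chain Fcer1g at 51.8 FPKM. Of 31 tested genes of the NF-κB pathway, 0 passed in edgeR or limma. For ACS against control 5 had an unadjusted p under 0.05 in edgeR. DESeq2 called 3 for this comparison, beside 1652 of all 16284 tested genes. Sod2, Irak1 and Rela were expressed at 58.0, 34.7 and 15.8 FPKM. Of 28 tested genes of other cytokines, receptors and STAT3 signalling, 0 passed in edgeR, DESeq2 or limma, and 3 had an unadjusted p under 0.05 for ACS against control. Jak1, Stat3 and Cntfr, the receptor for ciliary neurotrophic factor, were expressed at 46.0, 37.5 and 24.4 FPKM. The median log2 fold change of the 3 lists for ACS against control was -0.00981, -0.0059 and -0.0228.

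The promoters of members that moved were read beside that of a member with NF-κB letters in its promoter. RefSeq (assembly GRCr8) gave the 250 bases before the start of the gene for 25 of the 34 members, and Hcar2 was not among them. Letters were searched on both strands for STAT (TTCNNNGAA), NF-κB (GGGA and CC with any 4 bases between), PU.1 (GAGGAAGT), AP-1 (TGANTCA) and CRE (TGACGTCA), and matches of different motifs overlapped 0 times. They were found in 3, 8, 1, 3 and 1 of the 25 members, against 7.67%, 16.4%, 2.04%, 6.34% and 1.59% of 33469 promoters of the same length. Of the 4 members that moved and had a sequence, C1qa, Socs3 and Il1b are printed, and Ccr1, at the edge of detection, is not. They and Cxcl10, whose ACS values lay below control, stand 5′ to 3′ in lower case with matches of STAT, NF-κB or PU.1 in capitals.
C1qa: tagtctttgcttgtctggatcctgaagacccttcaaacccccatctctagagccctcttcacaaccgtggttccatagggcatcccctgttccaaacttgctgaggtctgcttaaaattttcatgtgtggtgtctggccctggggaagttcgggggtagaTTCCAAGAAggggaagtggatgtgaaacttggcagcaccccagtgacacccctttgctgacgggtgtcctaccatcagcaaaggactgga
Socs3: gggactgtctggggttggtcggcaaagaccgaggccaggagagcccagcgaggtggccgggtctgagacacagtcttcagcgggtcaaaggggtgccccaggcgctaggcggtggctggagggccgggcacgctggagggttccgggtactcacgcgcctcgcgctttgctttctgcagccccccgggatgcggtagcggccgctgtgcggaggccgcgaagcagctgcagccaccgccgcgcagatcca
Il1b: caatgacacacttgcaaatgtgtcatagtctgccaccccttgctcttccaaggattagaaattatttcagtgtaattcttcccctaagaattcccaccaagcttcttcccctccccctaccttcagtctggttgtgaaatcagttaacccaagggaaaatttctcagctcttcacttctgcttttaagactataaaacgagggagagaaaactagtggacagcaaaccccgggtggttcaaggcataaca
Cxcl10: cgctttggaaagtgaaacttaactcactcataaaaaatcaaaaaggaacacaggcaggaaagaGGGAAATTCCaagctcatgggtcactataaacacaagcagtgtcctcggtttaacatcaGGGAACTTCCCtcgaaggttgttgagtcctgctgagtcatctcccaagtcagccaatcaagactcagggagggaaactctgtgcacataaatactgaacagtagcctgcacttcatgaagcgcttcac
C1qa (chr5:154419934-154420183, minus strand) held a STAT match at position -90 from the start. Cxcl10 (chr14:15988816-15989065, plus strand) held NF-κB matches at -187 and -128, the last also read on the other strand, and an AP-1 match at -96. Socs3 (chr10:103694769-103695018, minus strand) and Il1b (chr3:137036582-137036831, minus strand) held no match of any of the 5 motifs, and neither did Ccr1. A match is only a run of letters, and its absence in this window says nothing of a factor's binding elsewhere. Each window was set by the annotated start of the gene. Whether transcription begins there was not tested, so the window printed for Socs3 may not be its promoter.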

How the data were processed

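Polyadenylated RNA from 9 libraries of rat cortical cultures was measured, 3 per group, grouped as their labels give them. The authors' notes list cutadapt 1.9, HISAT2 2.0.4, StringTie 1.3.4d, UMI-tools, DESeq2 and edgeR without roles, whereas the study's methods name fastp for trimming. The genome is written GRCh38 in the methods, although the cells are from rat, and no build stands in the table. The authors' FPKM values, as deposited, relate fragments to exon length and to the fragments of the library. The estimated counts beside them were also deposited by the authors as whole numbers, so no rounding was needed. The table was mapped to libraries in full, with 0 unmapped columns of values.

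Members and lists were chosen with earlier results of these data known. Estimated counts were scaled by TMM and filtered by filterByExpr (minimum count 10, minimum total 15), which removed 16339 of 32623 genes. Of all genes, 10920 were at 0 in every library. edgeR 4.0.16 (R 4.3.3) fitted all 9 libraries together by its quasi-likelihood test, with p-values adjusted by Benjamini-Hochberg over 16284 genes, a common biological coefficient of variation of 0.218 and 6 residual degrees of freedom. limma 3.58.1 on log2(FPKM + 0.1) or log2(FPKM + 1) and DESeq2 1.42.0 were alternatives, with others of filter, scaling, samples and replicate block. The fit was tested on simulated data. Fold changes in all 3 comparisons are given, by rule, for members with an adjusted p under 0.05 in any of them, for members past the study's thresholds (unadjusted p under 0.05, fold over 2) and for the 4 with the smallest p of each comparison, except that no fitted fold is given for Ccr1 in the comparisons with ACS, where its counts were 0. Of the wider lists, up to 4 genes are named by highest FPKM. Fold changes of other members were added after their values were seen. The floor set for Ccr1 covers counting error only. Some log2 fold changes are given with a standard error (SE). It is the absolute log2 fold change divided by the square root of the quasi-likelihood F. The table holds no columns of the authors' own comparisons, and its correlations between libraries on log2(FPKM + 1) were 0.983 to 0.99, with 0 identical pairs.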

Additional observations from a re-analysis of the deposited data

How the results depend on the processing

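Besides the fits that leave out 1 library, 9 alternative settings were tried, 1 of them with only the 6 libraries of a comparison. C1qa, Hcar2 and Il1b kept their direction and their call for ACS against control in all 9. Socs3 was called in 7 of the 9, and Ccr1 in 2 of the 5 that gave it an adjusted p. Ccr1 was not called in limma with a pseudocount of 0.1 (adjusted p = 0.0842) or 1 (0.157) or with a replicate block (0.0879). Settings that leave out 1 library removed most calls. With 1 library left out, members called for ACS against control numbered 0 to 5 (5 with all libraries) and for ACS against DCS 0 to 1 (1 with all). Members past the study's thresholds then numbered 1 to 5 for ACS against control, 1 to 2 for ACS against DCS and 0 to 2 for DCS against control, and genes called among all tested 138 to 1431, 27 to 184 and 1 to 47 for these comparisons. The log2 fold change of Ccr1 for DCS over control ran between -0.53 and 0.24 when 1 library was left out, being positive without control 1 (0.24) and DCS 2 (0.14), and that of Ptprc for ACS over DCS between -0.35 and 0.073, being positive without DCS 3. Neither had passed with all libraries.

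With DESeq2, genes called numbered 1652 for ACS against control (678 in edgeR), 650 for ACS against DCS (103) and 38 for DCS against control (2), and members called for ACS against DCS numbered 2. With only the 6 libraries of a comparison, 3 members were called for ACS against control, beside 481 of 15854 tested genes. For ACS against DCS 0 members were called, beside 85 of 15880 tested genes, and 0 were past the study's thresholds. For DCS against control 1 gene was called. Members past those thresholds for ACS against control (3) numbered 1 with a minimum mean FPKM of 1, 1 with counts divided by 4 and 0 in limma on log2(FPKM + 1), and for ACS against DCS (1) they numbered 0 in each of these. Shares of all genes past these thresholds were not counted with alternative settings, so these counts of members describe the list only. With counts divided by 4 and in limma on log2(FPKM + 1), 1 gene was called for DCS against control. In limma, 65 genes were called for ACS against DCS with a pseudocount of 0.1 and 64 with 1. On the CPM scale the ratios of the microglial sums were 0.9774 for ACS over control, 0.9557 for ACS over DCS and 1.023 for DCS over control. Ccr1 was not tested where the filter removed it, and DESeq2 gave it no adjusted p. The causes of these differences were not tested.

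The labels number the libraries of each group, but over all tested genes the deviations of same-numbered libraries were nearly uncorrelated (-0.0532 to 0.0631). The members' values by library number are given among the other observations. With the replicate number as a replicate block, 3 members were called for ACS against control. The count over all genes for that comparison is not given here, so the count of members describes the list only. With the block, 59 genes were called for ACS against DCS and 1 gene for DCS against control.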

Other observations

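A pattern by library number was looked for after the values were seen. For 15 of the 34 members (44.1%), library 3 was the lowest of its group in all 3 groups or the highest in all 3, against 13.6% of all tested genes. It was the lowest for Itgam, P2ry12, C1qb, C1qc, Il1a, Ccl3, Icam1 and Cd14, and the highest for Csf1r, Trem2, Tyrobp, Ptprc, Ccl2, Nfkbia and Lcn2. Microglial genes were on both sides, with P2ry12, a receptor of resting microglia, among the low ones and Trem2 and Tyrobp, a receptor and its adaptor, among the high ones. The pattern is a description without a test, the members are not independent of each other, and its cause was not tested. None of the 5 members that passed for ACS against control was at the same end in library 3. Library 1 was the lowest of every group for Tyrobp and Cxcl10 and the highest for C1qc, and library 2 was the lowest for Trem2 and the highest for Aif1 and for Il1b, which had passed.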
